A study of Mus musculus with 8 samples.

Results

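The 36 genes described here encode chemokines, cytokines and colony-stimulating factors, subunits and feedback genes of the transcription factor NF-kB, and a few known NF-kB targets. They were taken as a list of mouse symbols, chosen with earlier results of these data known, and found through the transcript accession of each array probe. All 36 were on the array, with 41 of the 39429 non-control probes: 32 genes had 1 probe and 4 had several. A gene was tested where 4 or more of the 8 arrays had its probe well above background, which held for 30 of the 36, among 14476 genes in all. Ccl20, Il6, Il1a, Il1b, Csf3 and Saa3 were not tested.

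RNA came from primary cultures grown from the kidney cortex of male mice aged 6 weeks, of the strain labelled C57/BJ, and labelled as proximal tubule cells. The pellet that was plated held mostly tubules, so other cortical cells could be carried along. In serum-free medium, 4 samples were given 1 μM GW4064 and 4 were given DMSO, the vehicle, both for 24 h. The compound GW4064 activates FXR, the bile acid receptor encoded by Nr1h4, and was made by synthesis.

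Chemokines are small secreted proteins that draw leukocytes along a gradient, and the CC and CXC classes are named for the spacing of their first cysteines. NF-kB dimers rest in the cytoplasm bound to inhibitors of the IκB family, and an activated kinase complex marks those inhibitors for degradation, which frees the dimers to enter the nucleus. Several IκB genes are themselves NF-kB targets, which closes a feedback loop. Injured tubule epithelium is known to make many of these proteins, and agonists of FXR are known from mouse liver and intestine to lower NF-kB target genes.

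The treated cultures showed the FXR response: the bile acid transporter subunits Slc51a and Slc51b rose by 6.91 ± 0.16 and 3.40 ± 0.07 on the log2 scale (SE), and Nr1h4 itself fell by 0.45 ± 0.05. Each of 2 slides carried 2 GW4064 and 2 DMSO samples, with the GW4064 samples always last, so that position on the slide and treatment cannot be told apart. The share of probes well above background was 61.4% to 65.7%, and the 75th percentile of the signal was 1412 ± 207 with GW4064 and 1626 ± 187 with DMSO (SD, n = 4 each). All 22 listed proximal tubule markers were well above background on at least 1 array. Of the 21 tested, led by Slc13a1, Gatm, Hnf4a and Ggt1, 12 rose and 1 fell. Over all genes 11.8% were higher and 8.95% lower (limma adjusted p under 0.05). Values below are scaled signals, the processed signal of a probe with its array's 75th percentile set to 100. They compare arrays for 1 probe and do not rank genes. A change given with ± is a log2 fold change, GW4064 minus DMSO, with its standard error.

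The comparison asked which of these inflammatory transcripts changed with the FXR agonist. Of the 30 tested, 12 were higher and 5 were lower with GW4064 at a limma adjusted p of 0.05, against 20.8% of all tested genes called, 11.8% higher and 8.95% lower. The monocyte chemokines Ccl2 and Ccl7 and the growth factors Csf1 and Csf2 rose, and the neutrophil chemokines Cxcl1 and Cxcl2 fell while their relative Cxcl5 rose. Changes of NF-kB subunits and inhibitors were small, all under 1.5-fold. No overlap between the groups was seen for 19 of the 30, 13 higher and 6 lower, against 26.2% of all tested genes. The median log2 fold change over the 30 was 0.13, and the median size of change was 0.28. Over all 14476 genes those medians were 0.01 and 0.10. Because the list was chosen with earlier results of these data known, these contrasts describe the list and test no enrichment. Csf2 entered the test only through its GW4064 arrays, so 11 of the 12 higher genes were well above background on all 8 arrays.

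**Figure D1:**
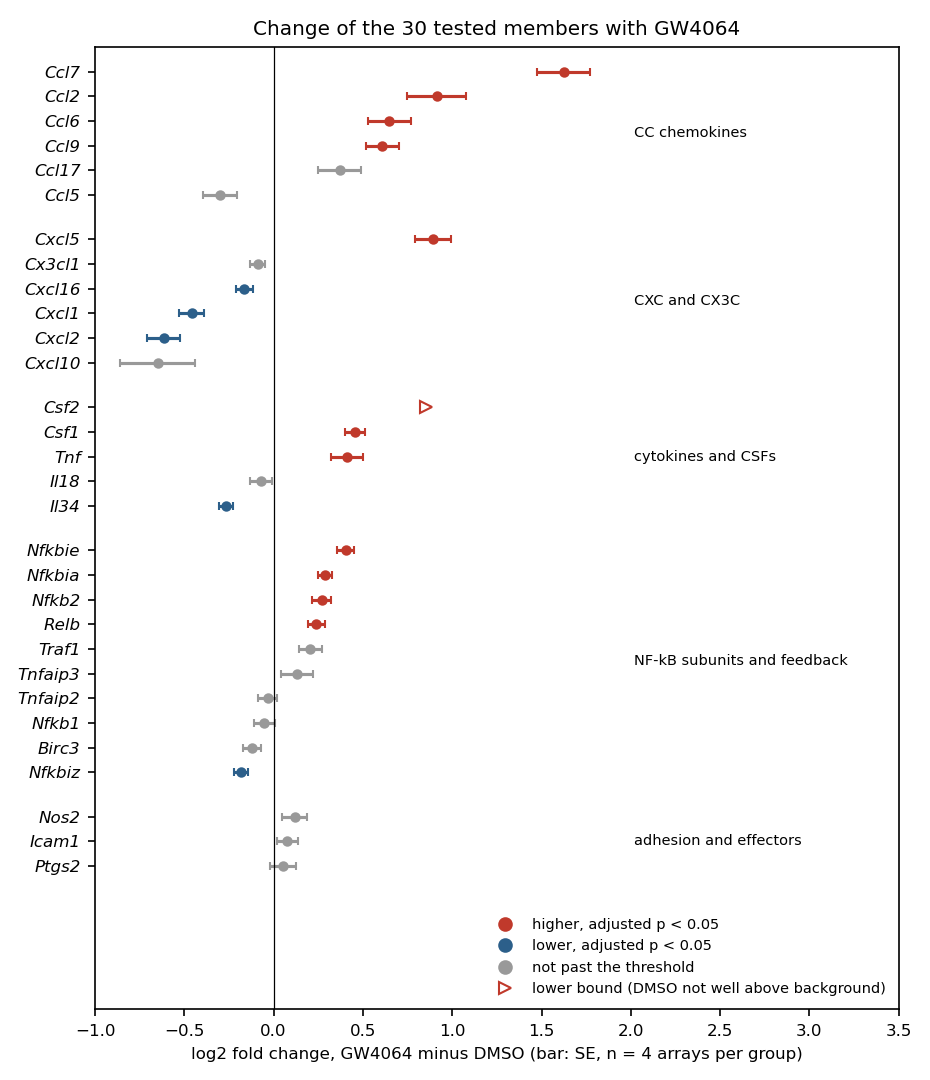
Log2 fold change of each tested gene, GW4064 minus DMSO, by role, with its standard error as a bar (n = 4 arrays per group). Most CC chemokines lie right of 0 and most CXC chemokines left of it, and Csf2 is drawn as a lower bound.

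Since the set includes known NF-kB targets, the start-site regions were searched on both strands for GGGA and TTCC with any 2 bases between them. RefSeq promoter entries on GRCm38.p6, 250 bases before to 50 after a start, were at hand for 25 of the 36 genes. The motif was in 7 of these 25 genes, namely Csf1, Cxcl1, Cxcl2, Cxcl10, Il6, Nfkb2 and Nfkbia, and in 441 of 27025 genes with an entry (1.63%), or 1.47% of 32851 promoters. The stretches are shown for 2 genes that fell, 1 that did not pass the test and 3 that rose, with the match in capitals, 5′ to 3′ on the gene's strand. Cxcl1 lies at chr5:90891134-90891224 (+), Cxcl2 at chr5:90903762-90903852 (+), Cxcl10 at chr5:92348999-92349088 (-), Csf1 at chr3:107760574-107760663 (-), Nfkbia at chr12:55492648-55492716 (-) and Nfkb2 at chr19:46305680-46305754 (+).
Cxcl1: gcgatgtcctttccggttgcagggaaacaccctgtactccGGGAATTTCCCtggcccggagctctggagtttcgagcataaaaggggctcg
Cxcl2: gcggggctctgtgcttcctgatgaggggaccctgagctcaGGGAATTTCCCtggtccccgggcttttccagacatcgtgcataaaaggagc
Cxcl10: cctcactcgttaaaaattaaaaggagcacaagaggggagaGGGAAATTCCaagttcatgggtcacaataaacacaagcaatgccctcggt
Csf1: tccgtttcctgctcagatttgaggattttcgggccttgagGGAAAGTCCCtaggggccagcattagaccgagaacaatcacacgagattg
Nfkbia: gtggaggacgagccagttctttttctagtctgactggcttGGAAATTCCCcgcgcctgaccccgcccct
Nfkb2: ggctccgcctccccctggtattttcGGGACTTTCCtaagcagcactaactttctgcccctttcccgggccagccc
In Cxcl1 and Cxcl2 the capitals join 2 overlapping matches, 1 on each strand, and the 11 letters are the same in both genes. In Csf1 and Nfkbia the match is on the opposite strand. Nfkb2 also had a match on the opposite strand, 236 bases before another of its starts, which is not shown. The motif was thus present in genes of either direction. An inverted repeat of GGTCA and TGACC with 1 base between them, the form FXR binds with its partner RXR, was in 0 of the 25 genes. It was in 0.0481% of all genes with an entry, too rare for a count among 25 genes to tell anything. A match describes letters only, and says nothing of binding in these cells.

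Among CC chemokines, the neighbours Ccl2 and Ccl7 both rose. Ccl2, the main ligand of the monocyte receptor CCR2, had scaled signals of 541, 513, 664 and 459 in the GW4064 samples, against 213, 305, 353 and 294 in the DMSO samples. Every GW4064 value lay above every DMSO value, and the change was 1.88-fold (log2 fold change 0.91 ± 0.16 SE, limma adjusted p = 0.00619). In bulk cultures such a rise cannot be told apart between more RNA per cell and more cells of a type that makes it. Ccl7, which also acts on CCR2, had 36.9, 37.4, 47.6 and 34.7 with GW4064, against 10.0, 12.1, 15.9 and 13.1 with DMSO. It changed 3.08-fold (1.62 ± 0.15, limma adjusted p = 0.000175), more than any other of the 29 genes with a measured fold. Ccl2 and Ccl7 lie next to each other on chromosome 11, with 0 protein-coding genes between them.

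A second group of neighbours on chromosome 11, Ccl5, Ccl9 and Ccl6, did not move as 1. Ccl6 and Ccl9, mouse chemokines that act through CCR1, both rose. Ccl6 had 90.5, 62.5, 80.0 and 66.2 with GW4064, against 46.4, 43.8, 52.9 and 46.2 with DMSO, a 1.57-fold change (0.65 ± 0.12, limma adjusted p = 0.00691). Ccl9 had 8.32, 6.68, 8.05 and 7.66 with GW4064, against 4.33, 5.12, 5.30 and 5.40 with DMSO, a 1.52-fold change (0.61 ± 0.09, limma adjusted p = 0.0025). Neither gene's groups overlapped. Ccl5, which draws T cells and monocytes, had 26.6, 28.9, 30.5 and 28.0 with GW4064, against 41.3, 32.5, 30.3 and 37.2 with DMSO. DMSO replicate 3 lay inside the GW4064 range, and the log2 fold change of -0.30 ± 0.10 did not pass (limma adjusted p = 0.0609). Without that array it was -0.37 and passed (0.0252), but it did not pass with any of the other 7 arrays left out (limma adjusted p up to 0.142).

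Ccl17, a ligand of the T cell receptor CCR4, had 11.5, 13.0, 13.2 and 10.7 with GW4064, against 7.51, 9.46, 11.1 and 9.60 with DMSO. Its groups overlapped, again through DMSO replicate 3, and the log2 fold change of 0.37 ± 0.12 did not pass (limma adjusted p = 0.0617). Without DMSO replicate 3 it was 0.45 and passed (0.029), but it did not with any of the other 7 arrays left out (limma adjusted p up to 0.144). Ccl20, the ligand of CCR6, was well above background on 0 of the 8 arrays. Over the class, 4 of 6 tested CC chemokines rose in limma and 0 fell, against 11.8% and 8.95% of all genes. At an unadjusted limma p under 0.05, 5 were higher and 1 was lower, against 19.4% and 15% of all genes. The median log2 fold change of the class was 0.63.

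**Figure D2:**
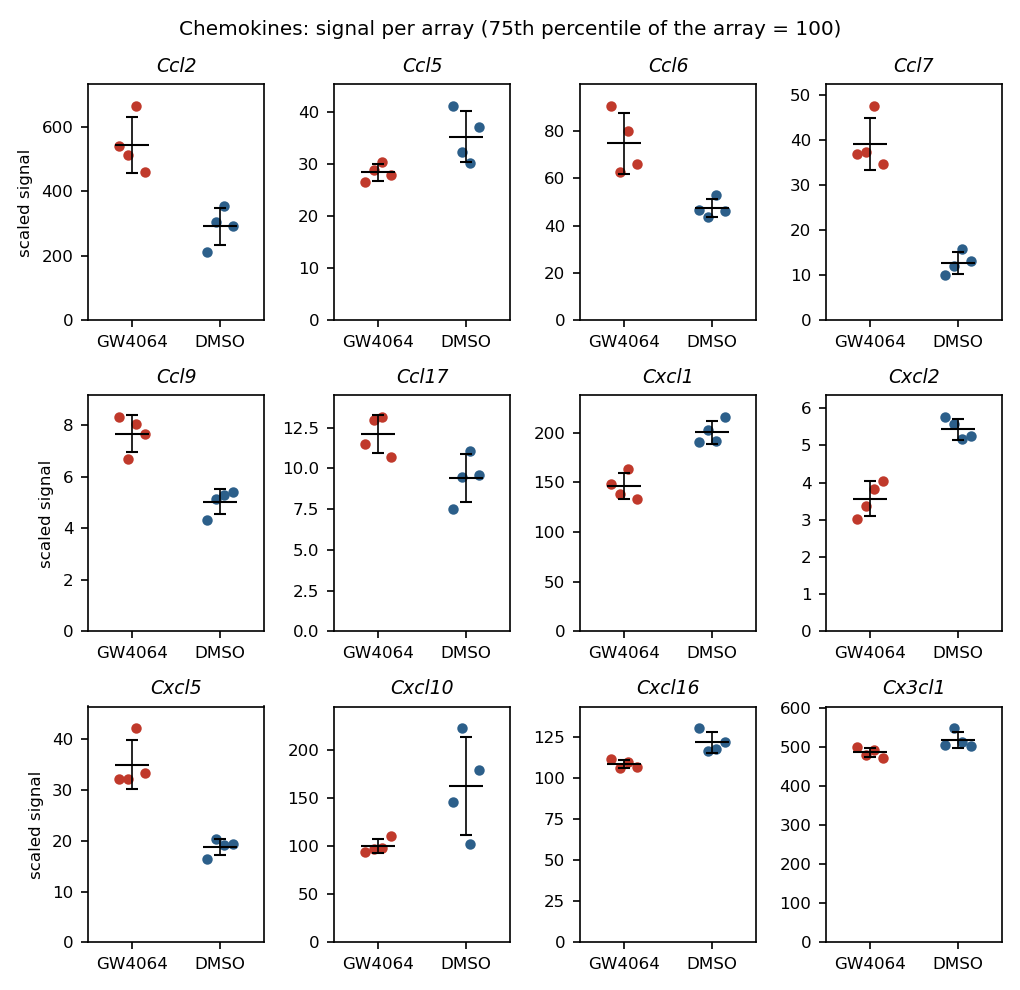
Scaled signal of the 12 tested chemokines on each array (points, GW4064 left and DMSO right; 75th percentile of the array set to 100), with mean and SD (n = 4). The groups are apart for Ccl2, Ccl6, Ccl7, Ccl9, Cxcl1, Cxcl2, Cxcl5, Cxcl16 and Cx3cl1, and overlap for Ccl5, Ccl17 and Cxcl10.

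The CXC chemokines that attract neutrophils through the receptor CXCR2 went in both directions. Cxcl5 had 32.2, 32.2, 42.2 and 33.3 with GW4064, against 16.5, 20.2, 19.1 and 19.3 with DMSO. All GW4064 samples were above all DMSO samples, by 1.86-fold (0.89 ± 0.10, limma adjusted p = 0.000581). Cxcl1 had 148, 139, 163 and 133 with GW4064, against 191, 202, 192 and 216 with DMSO. It was 1.37-fold lower with no overlap (-0.46 ± 0.07, limma adjusted p = 0.00301). Cxcl2 had 3.02, 3.36, 3.83 and 4.05 with GW4064, against 5.77, 5.57, 5.16 and 5.25 with DMSO. Its GW4064 values were all lower, by 1.53-fold (-0.62 ± 0.09, limma adjusted p = 0.00251), though with normexp background correction it was -0.19 and lost its call (adjusted p = 0.165). Cxcl1 and Cxcl2, whose start-site stretches above share their 11 capital letters, are neighbours on chromosome 5, and Cxcl5 lies 4 protein-coding genes from Cxcl1.

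Cxcl10, an interferon-induced ligand of the T cell receptor CXCR3, had 94.5, 97.0, 97.8 and 111 with GW4064, against 146, 223, 102 and 180 with DMSO. The GW4064 samples lay close together, while the DMSO samples had the widest spread of the 30 genes (SD 0.48 on the log2 scale), and DMSO replicate 3 lay within the GW4064 range. The log2 fold change of -0.65 ± 0.21 did not pass (limma adjusted p = 0.0624). Without DMSO replicate 3 it was -0.85 and passed (0.00545), but it did not with any of the other 7 arrays left out (limma adjusted p up to 0.143).

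The membrane-bound chemokines changed little. Cxcl16, the ligand of CXCR6, had 112, 106, 110 and 106 with GW4064, against 130, 116, 117 and 122 with DMSO, without overlap. It was 1.12-fold lower (-0.16 ± 0.05, limma adjusted p = 0.0381). Leaving out 1 array ended the call for 6 of the 8 arrays, with limma adjusted p-values of 0.0618 to 0.0984. Cx3cl1, known as fractalkine, had 501, 481, 493 and 473 with GW4064, against 507, 550, 515 and 504 with DMSO. Those groups did not overlap either, but the difference of -0.09 ± 0.04 did not pass (limma adjusted p = 0.166). Over the 6 CXC and CX3C chemokines, 1 rose and 3 fell, with a median of -0.31. Over all genes 11.8% were higher and 8.95% lower. Of 6 further chemokines tested from 19 listed, 2 rose and 1 fell: Cxcl12 by 0.43 ± 0.11 and Cxcl14 by 0.25 ± 0.06 upward, and Cxcl17 by -0.60 ± 0.09. With normexp the calls on Cxcl14 (0.12, limma adjusted p = 0.301) and Cxcl17 (-0.30, 0.0547) were lost, and with 1 array left out that on Cxcl12 was lost for 5 of 8 arrays.

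Of the ligands that support macrophages and granulocytes, Csf1 and Csf2 were higher. Csf2, which encodes GM-CSF, had 2.46, 2.16, 2.78 and 2.21 with GW4064, against 0.417, 0.543, 0.538 and 0.416 with DMSO. It was well above background on 4 of 4 GW4064 arrays and on 0 of 4 DMSO arrays, so its fold is a bound: at least 1.80-fold higher (limma adjusted p = 8.32e-06). The bound sets the GW4064 mean against the lowest signal that counted as well above background on each DMSO array, and the p rests on DMSO signals below that level. With normexp, which adds 50 to every signal, the difference was 0.57 on the log2 scale (limma adjusted p = 0.00121). Csf1, the macrophage colony-stimulating factor, had 598, 574, 621 and 575 with GW4064, against 389, 456, 438 and 446 with DMSO. It was 1.37-fold higher with no overlap (0.46 ± 0.06, limma adjusted p = 0.00103), and its other probes rose by 0.32 ± 0.09 and 0.42 ± 0.10, of which 0.42 ± 0.10 passed over all probes (limma adjusted p = 0.0258) and the other did not (0.0564).

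Il34, the second ligand of the receptor that Csf1 binds, went the other way. It had 476, 443, 480 and 475 with GW4064, against 562, 572, 567 and 550 with DMSO, 1.20-fold lower without overlap (-0.26 ± 0.04, limma adjusted p = 0.00217). Csf1r, which encodes that receptor, rose by 0.75 ± 0.05 (limma adjusted p = 2.35e-05). It had 3 probes, and only the one that stood for the gene was read. Csf1r also stands in the leukocyte marker list below.

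Tnf, the cytokine that activates NF-kB through its receptors, had 2.65, 3.23, 3.02 and 2.47 with GW4064, against 2.25, 2.15, 1.93 and 2.20 with DMSO. Its groups did not overlap, and it was 1.33-fold higher (0.41 ± 0.09, limma adjusted p = 0.0156), a call lost under normexp (0.23, adjusted p = 0.0665) and in the deposited table. Il18, of the interleukin 1 family, had 11.6, 10.4, 11.6 and 11.5 with GW4064, against 10.9, 11.6, 12.8 and 12.2 with DMSO, overlapping groups with a difference of -0.07 ± 0.06 (limma adjusted p = 0.46). Il6, a cytokine of the acute phase response, was well above background on 3 of 4 GW4064 arrays and on 0 of 4 DMSO arrays and was therefore not tested. Its scaled signals of 1.49, 1.61, 1.57 and 1.27 with GW4064 overlapped those of 0.96, 1.37, 0.947 and 1.37 with DMSO, so no fold or direction is given. Il1a, Il1b and Csf3 were well above background on 0 of 8 arrays. Of the 5 tested cytokines and colony-stimulating factors, 3 rose and 1 fell, against 11.8% and 8.95% of all genes. The 3 include Csf2, which entered the test only through its GW4064 arrays, and Tnf, whose call was lost in some settings.

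**Figure D3:**
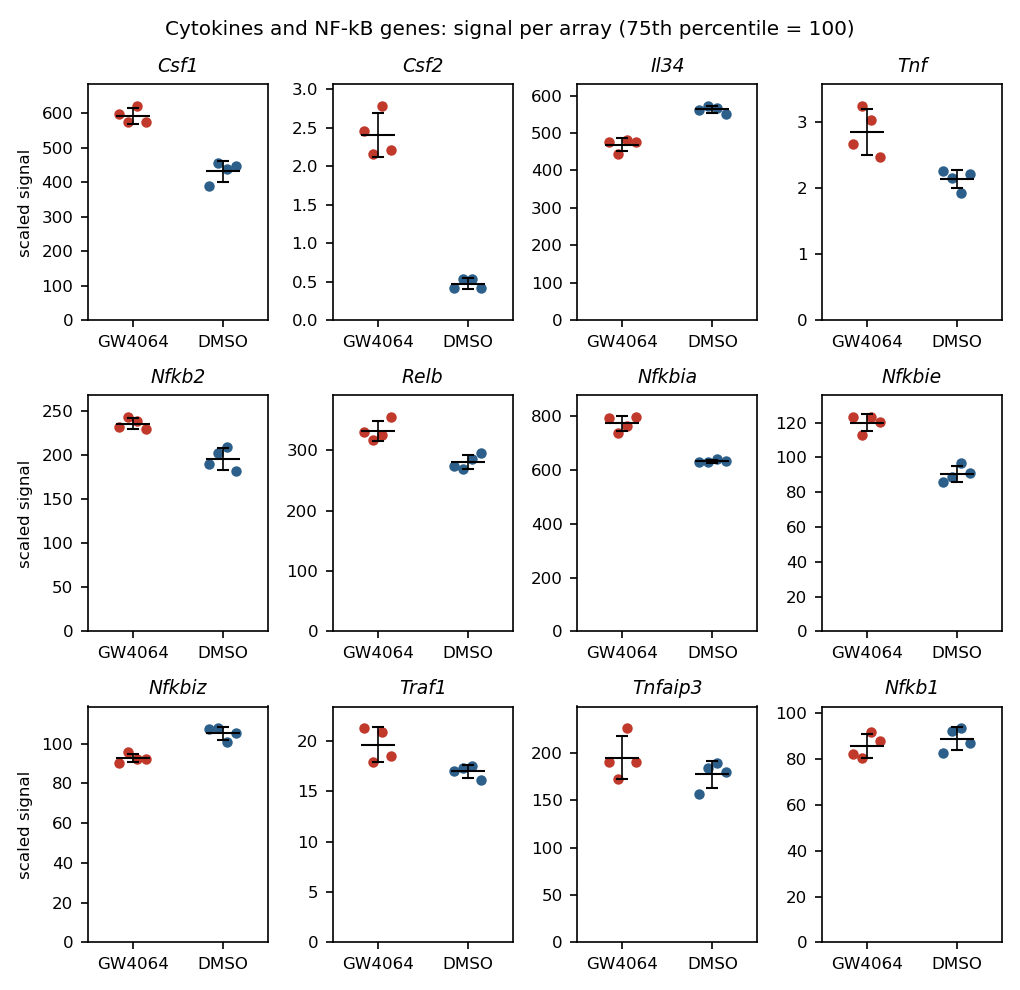
Scaled signal of 4 cytokines and 8 NF-kB genes on each array (points, GW4064 left and DMSO right; 75th percentile of the array set to 100), with mean and SD (n = 4). Csf2 is well above background on 0 of 4 DMSO arrays, and the inhibitor genes Nfkbia and Nfkbie are higher in all GW4064 samples while Nfkbiz is lower.

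Of the genes of the IκB family, Nfkbia and Nfkbie rose and Nfkbiz fell, each by under 1.5-fold. Nfkbia, which encodes IκBα, the inhibitor best known for the feedback loop, had 793, 739, 765 and 798 with GW4064, against 629, 632, 642 and 633 with DMSO. Its DMSO samples had the narrowest spread of the 30 genes, and it was 1.22-fold higher (0.29 ± 0.04, limma adjusted p = 0.00113). Nfkbie, which encodes IκBε, had 123, 113, 123 and 120 with GW4064, against 85.9, 88.7, 96.9 and 91.2 with DMSO, 1.32-fold higher without overlap (0.40 ± 0.05, limma adjusted p = 0.000935). Nfkbiz encodes IκBζ, a nuclear member of the family that acts with NF-kB on a subset of promoters. It had 90.5, 95.6, 92.5 and 92.4 with GW4064, against 108, 108, 101 and 105 with DMSO. All GW4064 values were lower, by 1.14-fold (-0.18 ± 0.04, limma adjusted p = 0.0116).

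The pair of subunits of the alternative NF-kB pathway rose. Nfkb2, which encodes p100 and p52, had 231, 243, 239 and 229 with GW4064, against 190, 203, 209 and 182 with DMSO, 1.20-fold higher without overlap (0.27 ± 0.05, limma adjusted p = 0.00839). Relb, the partner of p52, had 330, 317, 326 and 355 with GW4064, against 274, 270, 286 and 295 with DMSO, 1.18-fold higher (0.24 ± 0.05, limma adjusted p = 0.0109). A second Relb probe rose by 0.28 ± 0.04, but under median centring the call on Relb was lost. Nfkb1, which encodes p105 and p50, ranged from 80.7 to 92.0 with GW4064 and from 82.6 to 93.6 with DMSO. Its difference was -0.05 ± 0.06 (limma adjusted p = 0.574).

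The remaining feedback genes, Traf1, Birc3, Tnfaip3 and Tnfaip2, did not pass the test. Traf1, an adaptor of TNF receptors, had 21.3, 17.9, 20.9 and 18.5 with GW4064, against 17.0, 17.4, 17.6 and 16.1 with DMSO. Its groups did not overlap, yet the difference of 0.21 ± 0.07 missed the threshold (limma adjusted p = 0.0582) and passed only without GW4064 replicate 2 (0.25, adjusted p 0.037). Birc3, an inhibitor of apoptosis at the TNF receptor, differed by -0.12 ± 0.05 (limma adjusted p = 0.142). Tnfaip3, which encodes the deubiquitinase A20, ranged from 173 to 227 with GW4064 and from 157 to 189 with DMSO, a difference of 0.13 ± 0.09 (limma adjusted p = 0.342). Tnfaip2, a TNF-induced gene, differed by -0.03 ± 0.05, and its second probe by 0.08, so its probes disagreed in sign. Over the 10 subunit and feedback genes 4 rose and 1 fell, against 11.8% and 8.95% of all genes, so the lower count was near the background.

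Of the 3 effectors tested, 0 passed in limma, also at an unadjusted p under 0.05. Icam1, the adhesion molecule that holds leukocytes, differed by 0.08 ± 0.06 (limma adjusted p = 0.403). Nos2, the inducible nitric oxide synthase, differed by 0.12 ± 0.07 (0.269), and Ptgs2, the inducible prostaglandin synthase, by 0.05 ± 0.07 (0.665). All 3 had overlapping groups, and Saa3, an acute phase protein, was well above background on 0 of 8 arrays.

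Genes around this set were counted from lists of their receptors, of the signalling steps into NF-kB and of other known targets. Receptors and antagonists had 3 higher and 3 lower of 15 tested, against 11.8% and 8.95% of all genes. Beside Csf1r, the interleukin 1 receptor Il1r1 rose by 0.62 ± 0.07, while its partner Il1rap differed by -0.63 ± 0.10. Il6st, the shared signalling chain of the interleukin 6 family, differed by -0.34 ± 0.06. With normexp Il1rap differed by -0.078 and lost its call (limma adjusted p = 0.607). Signalling into NF-kB had 7 higher and 3 lower of 39, beside 11.8% higher and 8.95% lower over all genes, so the lower share was near the background. It included rises of the kinase regulator Ikbkg (0.38 ± 0.05) and the A20 partner Tnip1 (0.46 ± 0.07), and falls of Traf5 (-0.36 ± 0.05) and Birc2 (-0.35 ± 0.06). Of 20 other known NF-kB targets, 8 rose and 0 fell in limma (13 and 0 at an unadjusted p under 0.05, against 19.4% and 15% of all genes), led by the complement component C3 (2.83 ± 0.11), the TNF family ligand Tnfsf15 (1.63 ± 0.06) and the stress gene Gadd45b (0.31 ± 0.05). Cd83, counted among the 8, was well above background on 4 of 4 GW4064 arrays but on only 1 of 4 DMSO arrays, and its signals of 2.53 to 3.83 with GW4064, against 0.875 to 1.88 with DMSO, give no firm fold.

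**Figure D4:**
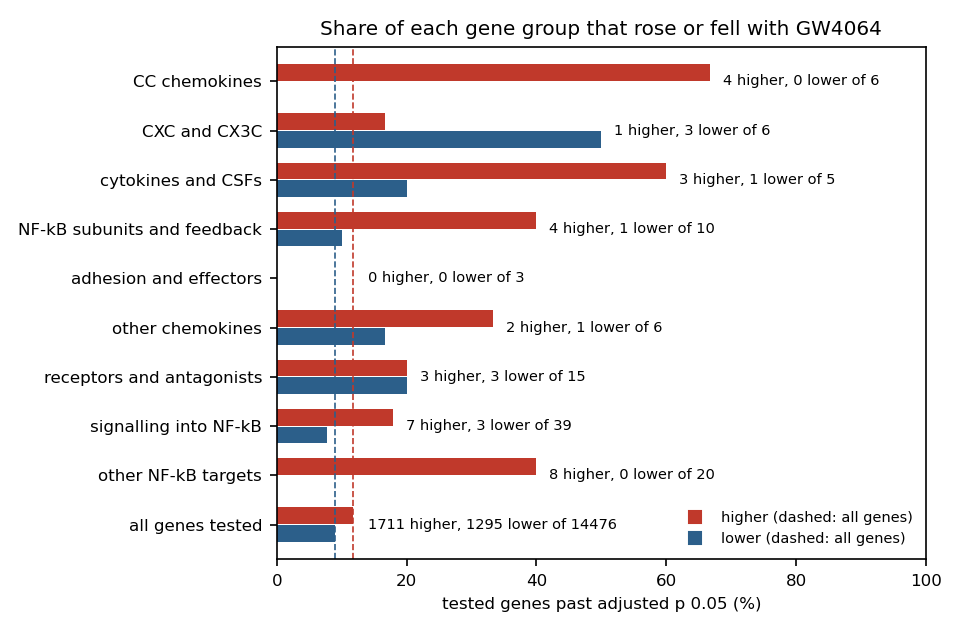
Percent of tested genes in each group that were higher or lower with GW4064 at a limma adjusted p of 0.05 (bars), with the shares over all 14476 genes as dashed lines. CC chemokines and other NF-kB targets hold only higher calls, and CXC and CX3C chemokines mostly lower ones.

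Markers of other cells moved with treatment too. Of 18 tested leukocyte markers from 23 listed, 6 rose and 0 fell in limma (11 and 0 at an unadjusted p under 0.05, against 19.4% and 15% of all genes), and their summed scaled signal was 2391 to 2660 with GW4064 and 1875 to 2030 with DMSO, without overlap. Without Csf1r and Cd14, the other 16 gave sums of 796 to 941 with GW4064 and 739 to 863 with DMSO, which overlap. That sum was added after seeing the data. Itgam alone made up 462 to 635 of it with GW4064 and 462 to 595 with DMSO. The overlap therefore says little about the dimmer markers. The rises included Csf1r, Cd14 (0.40 ± 0.04), Coro1a (0.35 ± 0.08) and C1qb (0.27 ± 0.06), of which Coro1a lost its call without DMSO replicate 1 (limma adjusted p = 0.0544) or DMSO replicate 2 (0.0646). The pan-leukocyte gene Ptprc lay lower, by -0.90 ± 0.54, and did not pass (limma adjusted p = 0.279), with DMSO replicate 4 far above the rest. All its GW4064 values lay below its DMSO values. Without DMSO replicate 4 it was -0.27 and passed as lower (limma adjusted p = 0.0257). It did not pass with any of the other 7 arrays left out. The macrophage genes Adgre1 and Itgam differed by 0.28 ± 0.17 and 0.03 ± 0.11, and neither passed. S100a8 and S100a9 were well above background on 0 of 8 arrays, and Cd68 was matched to no probe. Endothelial markers had 4 higher and 0 lower of 10 in limma (6 and 0 at an unadjusted p under 0.05, against 19.4% and 15% of all genes), among them Esam, Plvap, Cdh5 (0.33 ± 0.07) and Eng, while Pecam1 differed by 0.24 ± 0.09 (adjusted p = 0.0892). The groups overlapped for Eng, and its call was lost for 6 of the 8 arrays left out (adjusted p up to 0.0888). The endothelial markers had sums of 619 to 696 with GW4064 and 558 to 630 with DMSO. Fibroblast and pericyte markers had 3 higher (Tagln, Acta2 and Pdgfrb, the last by 0.33 ± 0.07) and 1 lower (Fbln2) of 11. Over all genes 11.8% were higher and 8.95% lower, so the lower count was near the background. Col1a1 differed by 0.21 ± 0.10 (limma adjusted p = 0.173). The fibroblast and pericyte sums were 9725 to 11320 with GW4064 and 8266 to 10719 with DMSO. The endothelial gene Tek and the fibroblast gene Lum were likewise well above background on 0 of 8 arrays. The part of these cells in the chemokine and cytokine changes was not tested.

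The changes had the same sign on both slides for all 17 called genes. This had to follow, since none of them had overlapping groups. From 2 against 2 arrays, 11 of the 17 calls were lost on slide 1 alone and 16 on slide 2 alone. Ccl7 differed by 1.75 on slide 1 and 1.49 on slide 2, Ccl2 by 1.05 and 0.78, Cxcl5 by 0.82 and 0.97, Cxcl1 by -0.45 and -0.46, and Cxcl2 by -0.83 and -0.40. With slide as a block, 16 of the 17 calls held and Cxcl16 did not (limma adjusted p = 0.0518). Within the GW4064 group, replicate 2 gave the lowest value for 17 of the 30 genes and replicate 3 for 0, while replicate 2 was lowest for 22.0% of all genes. DMSO replicate 1 was lowest of its group for 13 of the 30, and for 29.9% of all genes. Replicate 3 was highest for 13 of the 30 with GW4064 and for 11 with DMSO, against 28.0% and 25.0% of all genes. The SD on the log2 scale had a median of 0.10 in the GW4064 group and 0.09 in the DMSO group.

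**Figure D5:**
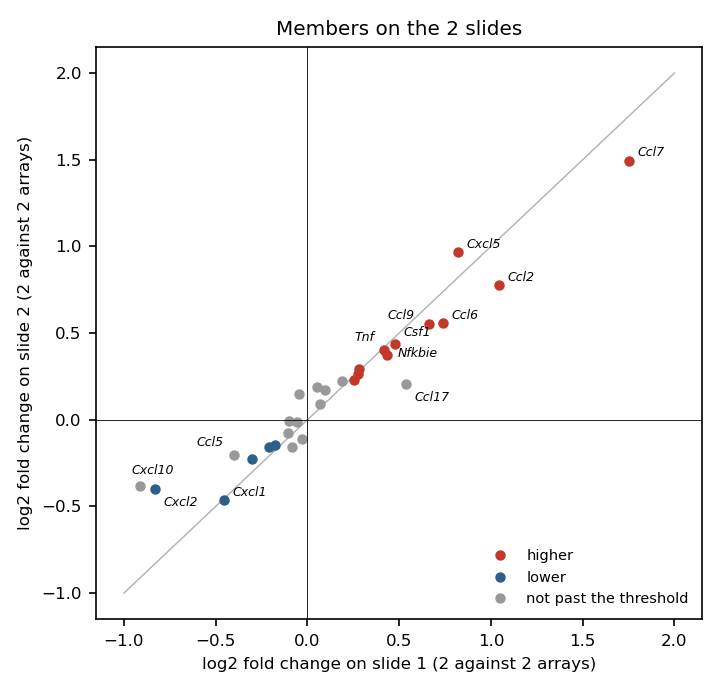
Log2 fold change, GW4064 minus DMSO, on slide 1 (x axis) against slide 2 (y axis), for the 29 genes with a measured fold, each from 2 against 2 arrays; the line marks equal values. The called genes lie in the upper right or the lower left, Ccl7 farthest out at 1.75 and 1.49.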

How the data were processed

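RNA of 4 GW4064 and 4 DMSO samples was measured on 1-colour Agilent arrays. Spot intensity was deposited by the authors after background subtraction by the scanner software, which the file headers give as Feature Extraction 10.7.3.1. In the submitters' processing notes, limma and Agilent Feature Extraction 10.7 are named. A series-wide table of log2 values was also deposited by the authors, with unstated scale. Each of its columns had a median of 6.598 and correlated with the array it belongs to (at least 0.9996) more than with the others (at most 0.9935), without centring of genes, and it served as an alternative.

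Control spots (1377 of 44397) and spots marked as outliers (98 to 174 per array) were left out, spots of a probe were averaged, and each array's 75th percentile was subtracted from the log2 processed signals. Probes had to be well above background on at least 4 of 8 arrays (24723 kept). Accessions were matched to the gene table of GRCm38.p6 for names and gene order only, since the headers name build mm9; 27234 probes (69.1%) received a symbol. The brightest kept probe stood for a gene, and other probes were read for members only. The comparison of groups used limma 3.58.1, run in R 4.3.3 (lmFit, eBayes, Benjamini-Hochberg over 14476 genes, threshold 0.05), with no covariate. The fit was tested on simulated data. Standard errors are those of the fit (n = 4 arrays in each group), and the number of arrays limits the precision. The labels do not say whether samples of a group were separate cultures or animals, and the p-values therefore reflect only how far these samples spread, which may be technical. Over all genes, samples sharing a replicate number did not deviate together (correlations of -0.13 to 0.19, the highest for replicate 3), so no pairing was used.

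Members and lists were chosen with earlier results of these data known. Every member was accounted for. From each surrounding or marker list, up to 4 genes past the threshold with the smallest p were named, besides defining markers, Nr1h4, Slc51a and Slc51b. Alternatives covered background correction, normalization, filter, probe choice, slide, replicate block, the deposited table and leaving out each array. Scan date split the arrays as slide did. Normexp (offset 50) used the median spot signals in the files, and spots with uneven local background took the array's median background there.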

Additional observations from a re-analysis of the deposited data

Results flagged for a closer look

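Of 136 groups of 4 arrays examined among the genes named, 11 (8.09%) had 1 array far from the other 3 relative to the group's range; chance flags about 5%. All values here are log2 relative to the array's 75th percentile. Among members, Cxcl5 in GW4064 replicate 3 was -1.25, above -1.64 to -1.58 in the other GW4064 arrays, so the highest value of a raised gene stood apart. Il18 in GW4064 replicate 2 was -3.27, below -3.12 to -3.11, and Il34 in the same array was 2.15, below 2.25 to 2.26. Without GW4064 replicate 2, Il34 still passed the test as lower with GW4064.

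Outside the members, Tnip1 in DMSO replicate 3 was 2.92, Gadd45b in GW4064 replicate 4 was 2.31, Cd14 in DMSO replicate 1 was 2.70, Eng in GW4064 replicate 4 was -2.92 and Pdgfrb in that array was -1.29. Tagln stood high in replicate 3 of both groups, at 5.64 with GW4064 and 5.11 with DMSO. Ptprc in DMSO replicate 4 was -1.53, against -4.10 to -4.01 in the other DMSO arrays.

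Il6 was left out of the test by the filter, yet was well above background on 3 GW4064 arrays and on 0 DMSO arrays.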

How the results depend on the processing

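No called member changed sign under any alternative run. For single slides and for arrays left out this had to follow, since no called member had overlapping groups. Of the counts, 3006 genes with 12 members higher and 5 lower, only the single slides moved them by over 1.5 times: slide 1 alone gave 966 genes with 4 members higher and 2 lower, and slide 2 alone gave 220 genes with 1 higher and 0 lower, each from 2 against 2 arrays. Leaving out 1 array gave 2076 to 2827 genes, 12 to 13 members higher and 4 to 7 lower. The other settings gave 2167 to 3015 genes, 11 to 12 higher and 4 to 6 lower. The replicate block gave 2322 genes with 12 members higher and 4 lower: Cxcl16 (adjusted p = 0.0583) and Tnf (0.0502) lost their calls and Ccl17 gained one (0.0447). Normexp lost Cxcl2, Cxcl16 and Tnf and gained Ccl5 and Cxcl10. Median centring lost Cxcl16 and Relb, and the deposited table lost Tnf. The cause was not tested. Signs turned only for genes not past the threshold: Il18 to 0.0086 under normexp, Tnfaip2 to 0.023 with the mean of probes, Ptgs2 to -0.047 on slide 1 alone and Adgre1 to -0.00016 on slide 2 alone. With 1 array left out, Tnfaip2 lay between -0.061 and 0.00062, Ptgs2 between -0.011 and 0.088, and Itgam between -0.062 and 0.11. Signal near background limits Csf2 to a bound and leaves the 6 untested members without a comparison.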
